A study of Mus musculus with 18 samples.

Results

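Cell cycle and DNA replication genes were followed in RNA-seq libraries of sorted cells from the main olfactory epithelium (MOE) of the mouse, the nasal tissue in which olfactory sensory neurons (OSNs) are replaced throughout life. The set holds 40 named genes, chosen by symbol with earlier results of these data known, among the 23359 symbols of the expression table. All 40 were found, and 34 of them passed the filter on low values, among 12502 genes tested. Of the 40, 20 act before or during DNA replication and 20 act in mitosis.

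The 18 libraries came from cells sorted by fluorescence. The Taar5 line (labelled TAAR5-Cre&L10-GFP, postnatal day 11 to 14) gave 7 reporter-positive libraries, called Taar5+, and 9 reporter-negative libraries, called control. The Taar6 line (TAAR6-Cre&ZsGreen, postnatal day 16 to 17) gave 1 Taar6+ library and 1 control. The strain is C57BL/6 per the labels, whereas the study's methods describe a mixed C57BL/6J and 129 background and give an older age for both lines. Control cells carry the same Cre and reporter alleles as the positive cells of their line. Cre is made from the transcript of the receptor gene itself, so the reporter marks cells that have made Taar5 or Taar6 transcript, or whose precursors did. Control cells are every other cell that passed the gate, mostly OSNs with odorant receptors but also other cells of the tissue.

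As background, new OSNs come from globose basal cells, dividing progenitors near the base of the epithelium, with horizontal basal cells as a mostly resting reserve. Progenitors leave the cell cycle before a neuron chooses its receptor and matures, so genes of replication and mitosis are known as marks of the basal layers. In the G1 and S phases, E2F factors raise the genes for cyclin E, origin licensing and DNA synthesis. In G2 and mitosis, the DREAM complex and its partners act on genes for mitotic cyclins, kinases and spindle proteins, many of which carry a CHR element (cell cycle genes homology region) and a CCAAT box near the start.

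In the promoter windows available, CHR words were more frequent in the mitosis genes and E2F words in the replication genes, though not in all of them. CCAAT was frequent in both groups. Promoter windows of 300 bases, 250 before and 50 after the start, were available for 33 of the 40 genes (35 windows, RefSeq on GRCm38.p6). A CHR word (TTTGAA or TTCGAA, either strand) stood in 13 of the 17 mitosis windows (76.5%) and in 3 of the 18 replication windows (16.7%), against 19.2% of all 32851 windows. An E2F word (TTTCCCGC, TTTCGCGC, TTTGCCGC or TTTGGCGC, either strand, overlaps allowed) stood in 9 of the 18 replication windows (50%) and in 1 of the 17 mitosis windows (5.88%), against 2.26% of all windows. CCAAT stood in 82.9% of the member windows and in 37.4% of all windows, with 88.2% of the mitosis and 77.8% of the replication windows. The stretches just before the start are shown for 3 mitosis genes and 3 replication genes whose levels are described below, 5′ to 3′ on the strand of the gene, with CHR, E2F and CCAAT words in capitals. They are Cdk1 (chr10:69352913-69353072, minus strand), Cdc20 (chr4:118437344-118437473, minus strand), Ube2c (chr2:164769799-164769928, plus strand), Mcm6 (chr1:128359706-128359835, minus strand), Mcm5 (chr8:75109349-75109508, plus strand) and Pcna (chr2:132253181-132253310, minus strand).
Cdk1: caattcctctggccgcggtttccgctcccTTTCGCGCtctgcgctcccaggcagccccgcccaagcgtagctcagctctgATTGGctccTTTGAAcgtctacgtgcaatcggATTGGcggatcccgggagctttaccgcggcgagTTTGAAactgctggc
Cdc20: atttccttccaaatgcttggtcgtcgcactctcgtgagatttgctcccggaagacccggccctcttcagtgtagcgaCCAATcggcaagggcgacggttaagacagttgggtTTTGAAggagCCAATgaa
Ube2c: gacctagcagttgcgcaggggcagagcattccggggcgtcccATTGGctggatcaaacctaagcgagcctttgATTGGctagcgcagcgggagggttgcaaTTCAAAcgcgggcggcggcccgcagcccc
Mcm6: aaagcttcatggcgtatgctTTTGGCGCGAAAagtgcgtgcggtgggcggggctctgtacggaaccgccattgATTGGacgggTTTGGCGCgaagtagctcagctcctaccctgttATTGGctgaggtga
Mcm5: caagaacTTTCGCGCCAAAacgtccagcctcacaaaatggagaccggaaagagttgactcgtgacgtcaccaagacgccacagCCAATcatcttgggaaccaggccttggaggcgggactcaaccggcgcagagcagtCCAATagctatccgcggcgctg
Pcna: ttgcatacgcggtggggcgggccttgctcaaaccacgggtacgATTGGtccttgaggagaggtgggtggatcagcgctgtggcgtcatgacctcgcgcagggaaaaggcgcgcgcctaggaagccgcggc
The Cdc20 and Ube2c stretches held 1 CHR word each and 0 E2F words, that of Mcm6 held 3 E2F words of which 1 pair overlaps, and that of Cdk1 held both kinds. The Pcna stretch held 0 words of either kind and 1 CCAAT. A match of letters is a description of these windows and not a measured site of binding.

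Values are TPM (transcripts per 1000000), a share of the library corrected for gene length, and such shares keep no record of sequencing depth. Gene symbols above 0 ranged from 9784 to 17653 in Taar5+ libraries and from 5891 to 16888 in controls. A gene listed at 0 may be silent or missed. Taar5 lay between 47.0 and 347 TPM in the Taar5+ libraries and reached at most 7.71 TPM in the 8 controls whose Taar values are their own. Omp, the marker of mature OSNs, was high in both groups, at 8597 to 18195 TPM in Taar5+ libraries and 3908 to 20070 TPM in controls. A pair of libraries stood apart. Control 2 had the fewest symbols above 0 (5891) and listed 55.2% of the tested genes at 0. Taar5+ 5 had the most (17653) and listed 0.0880% of them at 0. Values below are given with both libraries, and for the calls, the medians of gene groups and several single genes also without them, a choice made after the data were seen.

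Taken over the set, cell cycle genes were lower on average in Taar5+ cells than in control cells, by less than the spread between libraries. The mean log2(TPM + 1) of the 40 genes was 1.72 in the 7 Taar5+ libraries (SD 1.22) and 2.35 in the 9 controls (SD 1.03), so that Taar5+ minus control came to -0.63. The Taar5+ libraries ran from 0.76 to 4.30 with a median of 1.33, and the controls ran from 0.71 to 4.04 with a median of 2.27. Taar5+ 5 was above every control, and the other 6 Taar5+ libraries lay between 0.76 and 2.14. Control 2 was the lowest of all 16. Without both libraries the groups averaged 1.29 and 2.55, a difference of -1.26, and they still overlapped.

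**Figure D1:**
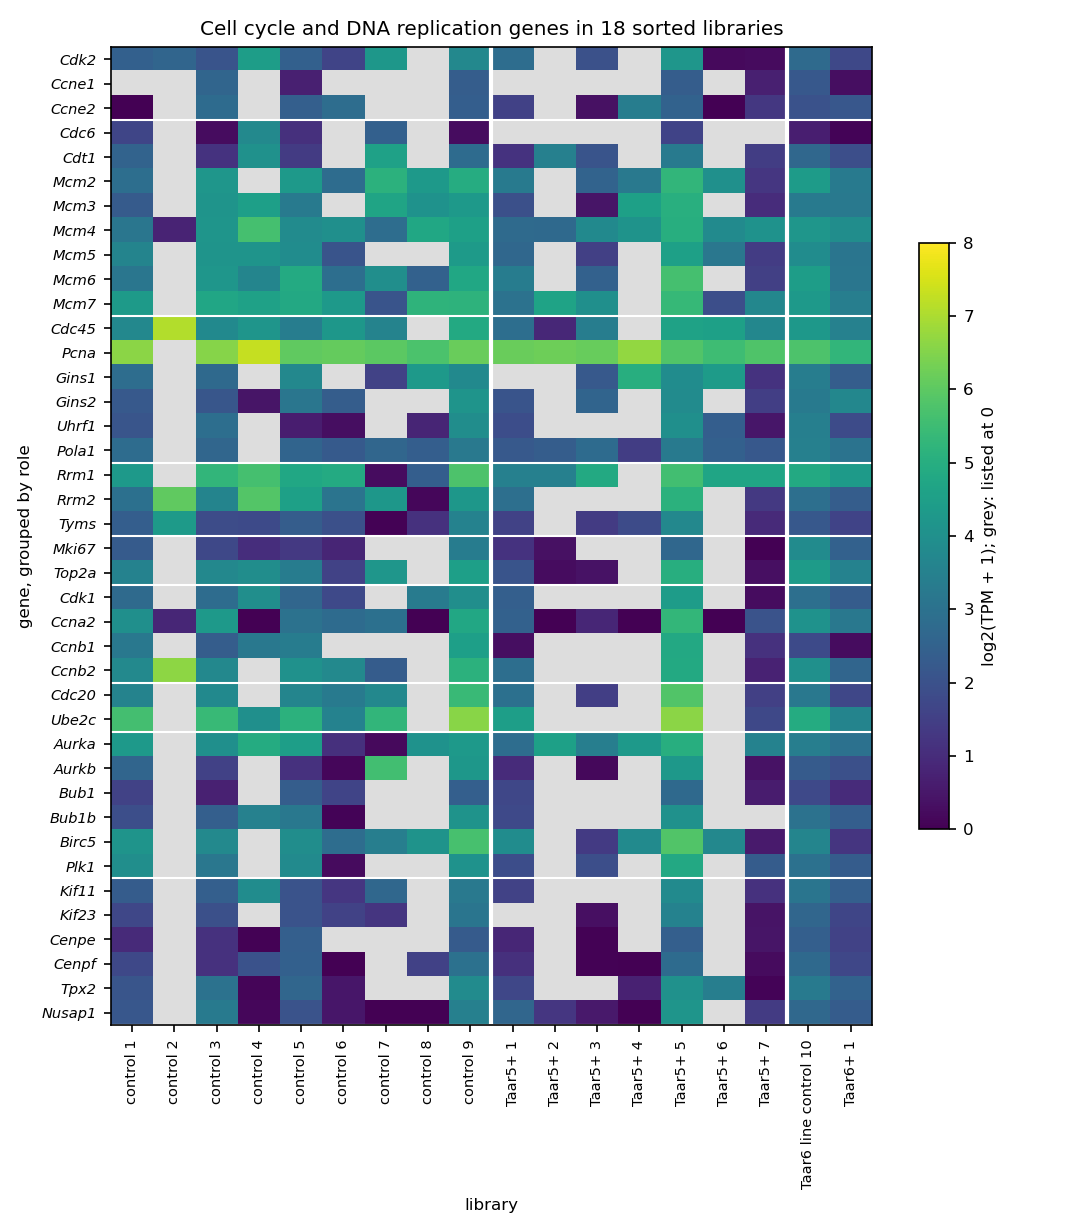
Level of each of the 40 genes (rows, grouped by role and separated by white lines) in each of the 18 libraries (columns), as log2(TPM + 1), with grey for genes listed at 0. Pcna is bright in every library except control 2, the mitosis rows are mostly grey in Taar5+ 2, 4 and 6 and in controls 2 and 8, and Taar5+ 5 and control 9, with means of 4.30 and 4.04, are the brightest columns.

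No single gene of the set passed the test. With limma on log2(TPM + 1), 0 of the 34 tested members had an adjusted p under 0.05, and 0.168% of all tested genes did (21 of 12502). At an unadjusted p under 0.05 there were 2 members, Rrm2 and Ccnb2, which is 5.88% of the members against 7.05% of all genes. The estimates were below 0 for 25 of the 34 (73.5%), against 48.6% of all tested genes, with a median of -0.68 against 0.02. The 95% interval contained a log2 fold change of -1 for 33 of the 34 and contained 0 for 32. The members varied more within groups than most genes did, with a median residual SD of 1.66 log2 units against 1.25, so a halving of most of them could not be told from no difference with these libraries.

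The outcome depended on which libraries were used and how they were weighted. Without control 2 and Taar5+ 5, the estimates of all 34 tested members were below 0, with a median of -1.25 against -0.23 for all genes, and 3 were called lower: Mcm6, Top2a and Rrm2. That is 8.82% of the tested members, beside 2.79% of all genes called lower in that fit. With weights that let limma trust noisy libraries less, 18 of the 34 were called lower (52.9%), beside 9.34% of all genes, and 13 of those 18 were mitosis genes. Weights estimated apart from that fit, on the tested genes without receptor genes, were lowest for control 2 (0.0492). They were highest for Taar5+ 7 and control 3 (5.91 and 5.76), and that of Taar5+ 5 was 0.986. Leaving out control 2 alone or Taar5+ 5 alone left 0 members called.

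**Figure D2:**
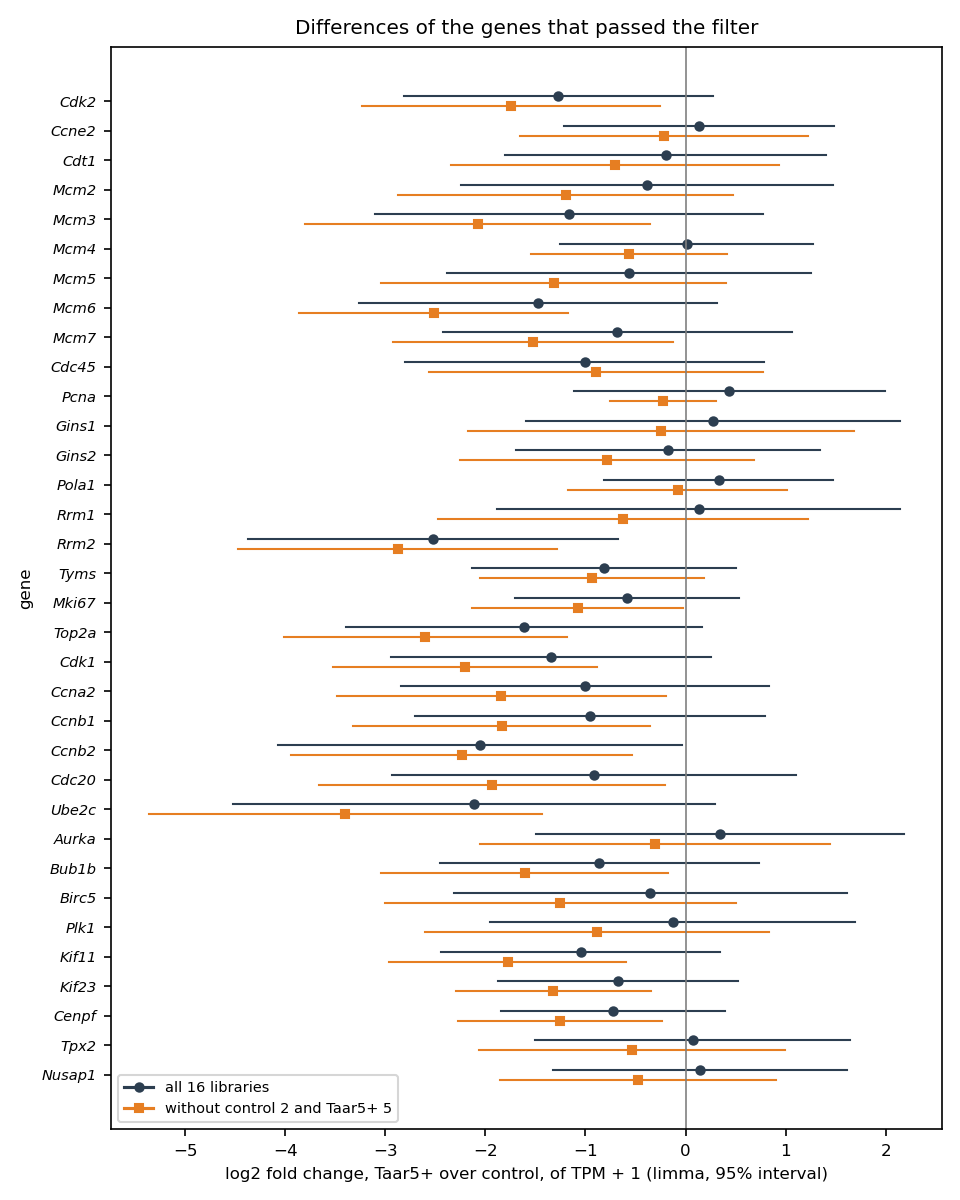
Log2 fold change of TPM + 1, Taar5+ over control, with its 95% interval from limma, for the 34 genes that passed the filter, from all 16 libraries (dark circles) and without control 2 and Taar5+ 5 (orange squares). With all libraries, 32 intervals cross 0, and without the pair every point lies left of 0.

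Among the G1/S genes, Cdk2, the kinase that cyclin E and cyclin A activate, ran from 0 to 17.5 TPM in Taar5+ libraries with a median of 0.177, and from 0 to 20.7 TPM in controls with a median of 4.50. Its log2 fold change was -1.27 (SE 0.74, limma adjusted p = 0.854). Ccne1 (cyclin E1) was listed at 0 in 5 of 7 Taar5+ libraries and 6 of 9 controls, reached 4.08 TPM in Taar5+ 5 and 5.09 TPM in control 3, and did not pass the filter. Ccne2 (cyclin E2) had a median of 1.44 TPM in Taar5+ libraries and one near 0 in controls. Its log2 fold change was 0.13 (SE 0.65), or -0.22 without both libraries. Both cyclins were low or absent in most libraries of both groups.

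Origin licensing loads the Mcm2-7 helicase on DNA before S phase, with Cdc6 and Cdt1 as loaders. The helicase genes did not show 1 common pattern. Mcm4 was above 0 in all 16 libraries, at 5.60 to 31.3 TPM in Taar5+ libraries (median 13.2) and 0.747 to 49.0 TPM in controls (median 14.7). Its log2 fold change was 0.01 (SE 0.60), or -0.57 without both libraries. Mcm6 ran from 0 to 48.6 TPM in Taar5+ libraries with a median of 1.85, and from 0 to 28.5 TPM in controls with a median of 11.6. Taar5+ 5 held the highest Mcm6 value of all 16 libraries, 3 Taar5+ libraries were at 0, and control 2 was the one control at 0. The log2 fold change of Mcm6 was -1.47 (SE 0.86, adjusted p = 0.854), and without both libraries it was -2.52 (adjusted p = 0.0367).

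Mcm2 ran from 0 to 37.6 TPM in Taar5+ libraries (median 8.38) and from 0 to 34.5 TPM in controls (median 17.6), a log2 fold change of -0.39 (SE 0.89) that was -1.20 without both libraries. Mcm7 had medians of 11.96 and 23.0 TPM, and Mcm3 and Mcm5 had medians of 1.03 and 1.87 TPM in Taar5+ libraries against 15.9 and 11.1 TPM in controls. For Mcm3 and Mcm5 the groups overlapped, with 2 Taar5+ libraries at 0 in each case and 2 and 3 controls at 0. Cdc6 was above 0 in 1 of 7 Taar5+ libraries (Taar5+ 5, 2.05 TPM) and in 6 of 9 controls (up to 12.7 TPM). Cdt1 had medians of 1.77 and 1.62 TPM. Of the 7 licensing genes tested, 6 had estimates below 0, and 0 were called.

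Replication fork genes had estimates of both signs with all libraries, and without control 2 and Taar5+ 5 the 5 tested were all below 0. Pcna, the sliding clamp that holds polymerases on DNA, was the most abundant gene of the set and the only member with a group mean above 50 TPM. It lay between 44.7 and 102 TPM in all 7 Taar5+ libraries (median 69.4) and between 51.7 and 156 TPM in 8 controls, with 0 in control 2. The log2 fold change was 0.44 (SE 0.74, 95% interval -1.11 to 1.99), and without both libraries -0.22 (95% interval -0.76 to 0.31). About 19.1% of the 50-base words of its transcripts occur in other genes, mostly the pseudogene Pcna-ps2, and how such reads were counted is not stated. Pcna was thus present in libraries where Mki67, Cdk1 and Ccnb1 were all listed at 0, namely Taar5+ 3, 4 and 6 and control 7.

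Pola1, the catalytic subunit of the polymerase that starts each DNA strand, was likewise above 0 in every Taar5+ library, at 1.76 to 8.92 TPM (median 4.08), and ran from 0 to 8.49 TPM in controls (median 4.93). Its log2 fold change was 0.33 (SE 0.55), or -0.078 without both libraries. Gins1, a subunit of the replicative helicase, ran from 0 to 31.3 TPM in Taar5+ libraries and from 0 to 18.6 TPM in controls, and Taar5+ 4 held its highest value. Cdc45, its partner, had medians of 9.53 and 13.0 TPM, and its highest value of all was 136 TPM in control 2, a library with 33 of the 40 genes at 0. Gins2 overlaps the exons of the antisense gene Gse1 over 67.3% of its exonic bases, so its values (medians 1.78 and 3.36 TPM) may hold reads of both genes. Uhrf1, which reads newly copied methylated DNA, did not pass the filter and had medians of 0.404 and 0.559 TPM.

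Among the enzymes of nucleotide supply, both subunits of ribonucleotide reductase were measured, and they differed in pattern. Rrm1, the large subunit, ran from 0 to 47.0 TPM in Taar5+ libraries (median 24.8) and from 0 to 53.4 TPM in controls (median 26.01). Its log2 fold change was 0.13 (SE 0.96), or -0.63 without both libraries. Rrm2, the small subunit that S phase cells make, was at 0 in 4 of 7 Taar5+ libraries (Taar5+ 2, 3, 4 and 6) and at 1.496, 6.56 and 33.4 TPM in the other 3. It was above 0 in all 9 controls, from 0.110 to 65.7 TPM with a median of 17.6. The groups overlapped, since control 8 was at 0.110 TPM and Taar5+ 5 exceeded 7 of the controls. Rrm2 had the lowest estimate of the set, a log2 fold change of -2.52 (SE 0.88, unadjusted p = 0.0101, adjusted p = 0.383), and without both libraries -2.88 (adjusted p = 0.0455). Tyms, thymidylate synthase, had medians of 1.65 and 2.91 TPM and an estimate of -0.81 (SE 0.63).

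**Figure D3:**
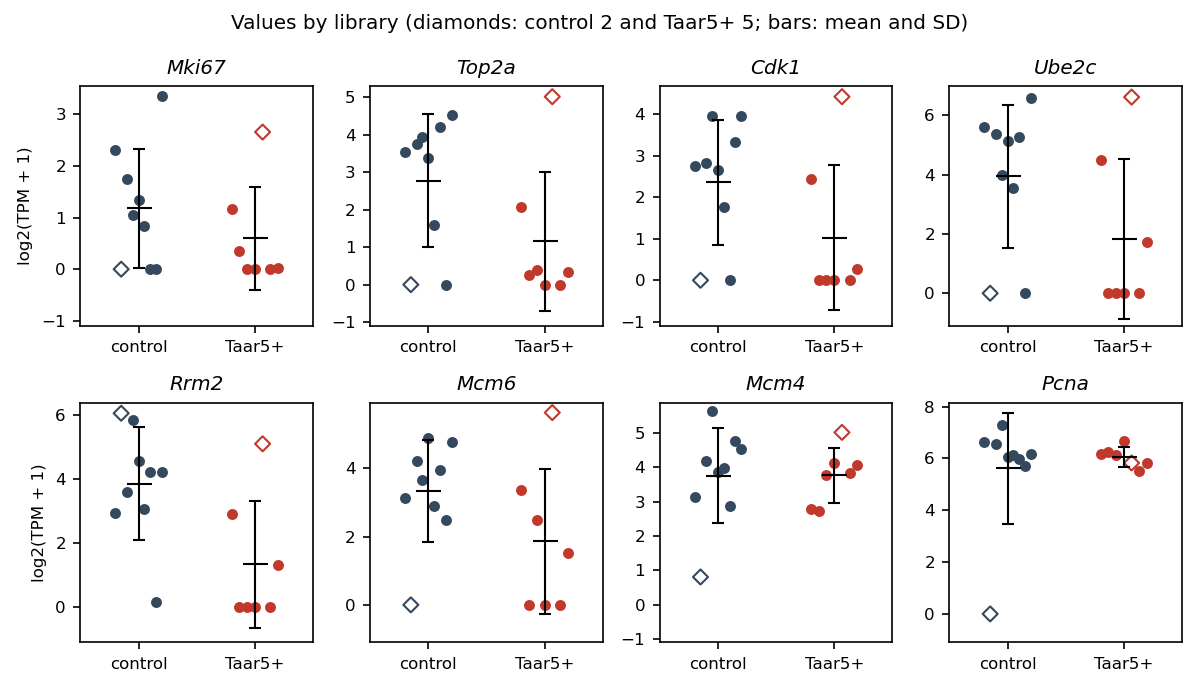
Values of 8 genes as log2(TPM + 1) in 9 control and 7 Taar5+ libraries, with the mean and SD as bars and diamonds for control 2 and Taar5+ 5. Top2a, Cdk1, Ube2c and Rrm2 sit at or near 0 in most Taar5+ libraries, whereas Mcm4 and Pcna stay above 2 in every Taar5+ library.

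The proliferation markers were low in absolute terms. Mki67, which coats chromosomes of cycling cells, ran from 0 to 5.31 TPM in Taar5+ libraries with a median of 0.00932, and from 0 to 9.29 TPM in controls with a median of 1.06. It was at 0 in 3 libraries of each group, and its estimate was -0.58 (SE 0.53), or -1.08 without both libraries. Top2a, the topoisomerase that untangles chromosomes, was at 31.2 TPM in Taar5+ 5, at 3.21 TPM in Taar5+ 1 and at 0 to 0.320 TPM in the other 5. Controls 1, 3, 4, 5, 7 and 9 were between 9.34 and 22.1 TPM, control 6 was at 2.02 TPM, and controls 2 and 8 were at 0. Apart from Taar5+ 5, no Taar5+ library reached those 6 controls. The log2 fold change of Top2a was -1.61 (SE 0.85, adjusted p = 0.793), and without both libraries -2.60 (adjusted p = 0.0418).

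The B cyclins and Cdk1, the kinase they activate, were listed at 0 in most Taar5+ libraries. Cdk1 was at 0 in 4 of 7 Taar5+ libraries, at 0.208, 4.41 and 20.5 TPM in the others, and at 2.41 to 14.5 TPM in 7 controls with 2 controls at 0. Ccnb1 (cyclin B1) was at 0 in 4 of 7 Taar5+ libraries and 4 of 9 controls, with highest values of 27.2 and 21.8 TPM. Ccnb2 (cyclin B2) was at 0 in 4 of 7 Taar5+ libraries and 2 of 9 controls, and control 2 held its highest value, 98.1 TPM. The estimates were -1.34 (SE 0.76) for Cdk1, -0.95 (SE 0.84) for Ccnb1 and -2.05 (SE 0.97, unadjusted p = 0.0468, adjusted p = 0.692) for Ccnb2. Without both libraries all 3 were lower still, at -2.20, -1.84 and -2.24, and 0 of them was called in that fit. Ccna2 (cyclin A2), which serves both S phase and mitosis, had medians of 0.807 and 6.75 TPM. About 23.4% of the 50-base words of Ccnb1 also occur in other genes, mainly its pseudogene.

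Cdc20 and Ube2c serve the ubiquitin ligase that starts anaphase, Cdc20 as its activator and Ube2c as its conjugating enzyme. Ube2c was at 0 in 4 of 7 Taar5+ libraries and at 2.31, 21.4 and 96.7 TPM in the others, and it was at 10.6 to 94.7 TPM in 7 controls with 2 controls at 0. The libraries at 0 were Taar5+ 2, 3, 4 and 6 and controls 2 and 8. Its estimate was -2.11 (SE 1.15, adjusted p = 0.815) and -3.40 (adjusted p = 0.0533) without both libraries. Cdc20 had medians of 1.78 TPM in Taar5+ libraries and 11.0 TPM in controls, with 3 libraries at 0 in each group. An antisense gene, Tnnc2, overlaps 22.8% of the exonic bases of Ube2c.

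Mitotic kinases and checkpoint genes had estimates of both signs with all libraries. Aurka (Aurora A) was above 0 in 6 of 7 Taar5+ libraries, at 6.18 to 31.1 TPM with 0 in Taar5+ 6, and it ran from 0 to 29.4 TPM in controls with a median of 15.7. Its estimate, 0.35 (SE 0.88), was the highest of the mitosis genes. Plk1 was at 0 in 3 of 7 Taar5+ libraries and 4 of 9 controls, with medians of 2.69 and 0.178 TPM and highest values of 27.6 and 16.04 TPM. Birc5 (survivin) had medians of 12.4 and 12.5 TPM. Bub1b, a spindle checkpoint kinase, was above 0 in 2 of 7 Taar5+ libraries and 6 of 9 controls, and its relative Bub1 (3 of 7 and 5 of 9) and Aurkb (4 of 7 and 6 of 9) did not pass the filter. The estimates were -0.13 (SE 0.87) for Plk1, -0.35 (SE 0.94) for Birc5 and -0.86 (SE 0.76) for Bub1b. Without both libraries the 4 tested genes were all below 0, at -0.30 (Aurka), -0.88 (Plk1), -1.25 (Birc5) and -1.61 (Bub1b), with 0 called.

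Spindle and kinetochore genes were low in level. Kif11, a spindle motor, had medians of 0 and 3.99 TPM and an estimate of -1.05 (SE 0.67), or -1.78 without both libraries. Kif23, a motor of cell separation, had medians of 0 and 1.98 TPM, and Cenpf, a kinetochore protein, had medians of 0.0367 and 1.92 TPM. Tpx2, which helps to build the spindle, had medians of 0.664 and 0.403 TPM (estimate 0.07, SE 0.75). Nusap1, which bundles spindle microtubules, had medians of 1.42 and 0.406 TPM (0.14, SE 0.70). Without both libraries these estimates were -0.54 and -0.48. Cenpe, a kinetochore motor, did not pass the filter.

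Set beside each other, the mitosis genes had a median estimate of -0.86 (17 tested, 14 below 0) and the replication genes one of -0.39 (17 tested, 11 below 0), a contrast that was not tested. These medians moved with the libraries used. Without Taar5+ 5 alone they were -1.40 and -0.80, and without control 2 and Taar5+ 5 -1.61 and -0.90, with all 17 of each below 0. The mean level per library over the 20 mitosis genes was 1.28 in Taar5+ libraries (SD 1.48, n = 7) and 2.03 in controls (SD 1.23, n = 9), and over the 20 replication genes it was 2.16 (SD 0.99) and 2.66 (SD 0.86). Without Taar5+ 5 and control 2 the mitosis means were 0.76 and 2.24. Of 11 genes with a median of 0 TPM in Taar5+ libraries, 8 were mitosis genes, and 17 genes were at 0 in Taar5+ 2, 4 and 6 together, of which 12 were mitosis genes. Taken singly, Taar5+ 2, 4 and 6 listed 15.3%, 25.9% and 16.5% of all tested genes at 0. The medians were lower in Taar5+ libraries for 33 of the 40 genes and higher for 6. These counts include the 6 genes that did not pass the filter. No share over all genes is given for the medians, so they are not read as particular to the set. The groups overlapped for all 40, and of all 12502 tested genes 0.144% did not overlap (13 higher and 5 lower).

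At the extremes, the level of the set went with the number of genes detected. The 2 Taar5 line libraries with the most symbols above 0 (17653 and 16888) had means of 4.30 (Taar5+ 5) and 4.04 (control 9). The 2 with the fewest (5891 and 9784) had means of 0.71 (control 2) and 0.98 (Taar5+ 4). Between them the order did not hold throughout, since control 4 (11259 symbols) had a mean of 2.27 and control 6 (14527) one of 1.83. In Taar5+ 2, 22 of the 34 tested members (64.7%) and 15.3% of all tested genes were at 0, and in control 8 these were 17 members (50%) and 15.8%. Taar5+ 7 had 38 of the 40 genes above 0 but only 23 at 1 TPM or more, with a mean of 1.44. With all libraries the mean number of symbols above 0 was close in the groups, at 13181 (SD 2638) over Taar5+ libraries and 13118 (SD 3416) over controls. Without Taar5+ 5 and control 2 it was 12436 (SD 1919) and 14022 (SD 2223). In those libraries, 11.8% and 6.73% of the tested genes were at 0 on average. The part of detection in the members' difference was not tested.

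**Figure D4:**
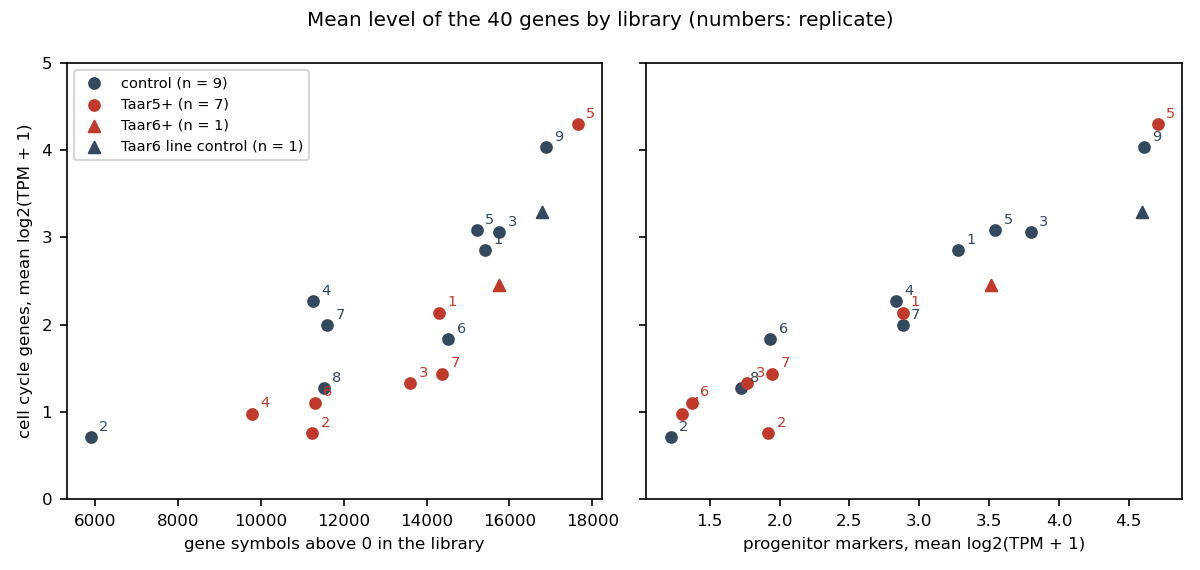
Mean log2(TPM + 1) of the 40 genes per library against the number of gene symbols above 0 (left) and against the mean log2(TPM + 1) of 7 progenitor markers (right). Circles are the 16 libraries of the Taar5 line with their replicate number, and triangles are the Taar6 line, which was not compared with them. Control 2 lies lowest and Taar5+ 5 highest in both panels.

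Progenitor and horizontal basal cell markers, like the set, were lower in the median Taar5+ library, with 0 called. This was not particular to them, since summed immature OSN, sustentacular, and blood and immune markers had lower medians too. The summed level of 7 progenitor markers (Neurog1, Neurod1, Kit, Sox2, Lgr5, Hes6 and Ezh2) ran from 43.3 to 588 TPM in Taar5+ libraries (median 88.3) and from 68.1 to 552 TPM in controls (median 327). Hes6 made up most of this sum in every library, at 25.7 to 459 TPM in Taar5+ libraries and 51.7 to 416 TPM in controls. In control 2 it was at 373 TPM with the other 6 at 0. All 7 were tested, 6 had estimates below 0 and 0 were called. Neurog1, which marks immediate neuronal precursors, was at 0 in 3 of 7 Taar5+ libraries and 4 of 9 controls. Neurod1, a mark of the last divisions and of new neurons, was at 65.0 TPM in Taar5+ 5 and at 0 to 8.50 TPM in the other 6, against 36.2 to 66.5 TPM in 6 controls and 0 to 1.86 TPM in the other 3. Those 6 controls were the same 6 in which Top2a reached 9.34 TPM or more.

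Horizontal basal cell markers (Krt5, Krt14 and Trp63) summed to 0 to 181 TPM in Taar5+ libraries (median 5.01) and to 0 to 123 TPM in controls (median 98.0), with all 3 below 0 and 0 called. All 3 were at 0 in Taar5+ 2, Taar5+ 6 and control 2. Immature OSN markers (Gap43, Gng8, Tubb3, Dcx, Stmn2 and Dpysl3) were above 0 in all 16 libraries. Their sums were 1543 to 2667 TPM in Taar5+ libraries (median 2165) and 800.4 to 4539 TPM in controls (median 3124). Mature OSN markers, 8 genes with Omp, were above 0 in all 16 libraries and had means of log2(TPM + 1) of 10.4 and 10.3. Sustentacular markers summed to 166 to 13314 TPM in Taar5+ libraries (median 613), the highest in Taar5+ 5. In controls they summed to 290 to 9971 TPM (median 1331), the highest in control 2, the library with the lowest level of the set. Blood and immune markers, 6 genes that include the haemoglobin gene Hba-a1, summed to 5.71 to 1446 TPM (median 504) and 4.67 to 6201 TPM (median 1023). Of their 6 estimates 5 were below 0, and 0 were called. The part of these cells in the members' difference was not tested. In sorted bulk cells, fewer cycling cells and less of each transcript per cell cannot be told apart.

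Genes of the same pathways outside the set were read from 5 lists of 115 symbols, of which 88 were tested and 0 were called. At an unadjusted p under 0.05 there were 4 (4.55%), against 7.05% of all genes. The 33 other mitotic genes tested had estimates below 0 in 30 cases, with a median of -0.41, and without control 2 and Taar5+ 5 in all 33, with a median of -1.03. Spc25, a kinetochore subunit, ran from 0 to 34.0 TPM in Taar5+ libraries (median 0) and from 0 to 41.5 TPM in controls (median 18.1), with an estimate of -1.99 (SE 0.98, adjusted p = 0.747). Cks1b, a Cdk subunit, had medians of 10.6 and 59.7 TPM (estimate -1.70, SE 0.95), Smc2, a condensin subunit, 1.44 and 3.002 TPM (-1.24, SE 0.52), and Cenpa, the centromere histone, 0 and 7.94 TPM (-1.20, SE 0.91, or -2.16 without both libraries).

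Of the 35 other replication genes, 18 were below 0, with a median of -0.03, and without both libraries 27 were, with a median of -0.32. Tk1, the S phase thymidine kinase, had the lowest estimate, with medians of 0.178 and 4.56 TPM and a log2 fold change of -1.91 (SE 0.80, unadjusted p = 0.0277, adjusted p = 0.583). Pola2 had medians of 4.11 and 11.7 TPM (-1.31, SE 0.80). The chromatin assembly subunits Chaf1b (-0.94, SE 0.90) and Chaf1a (0.90, SE 0.71) had estimates of opposite sign. Without control 2 and Taar5+ 5, Tk1 (-2.07, adjusted p = 0.0405) and Spc25 (-3.05, adjusted p = 0.0499) were called lower, 2 of the 88 (2.27%) beside 2.79% of all genes.

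Upstream regulators showed both signs. Cdk4, a kinase of the D cyclins, was among the most abundant, at 23.2 to 323 TPM in Taar5+ libraries (median 108) and 103 to 365 TPM in controls (median 189), with an estimate of -0.90 (SE 0.41, unadjusted p = 0.0400, adjusted p = 0.654). Ccnd3 had medians of 59.1 and 27.9 TPM (1.05, SE 0.65), Ccnd2 medians of 0.165 and 3.12 TPM (-0.82, SE 0.64), and Cdk6 an estimate of 0.57 (SE 0.61). Among the Cdk inhibitors, Cdkn1a (p21) was at 55.0 TPM or more in every library, with medians of 151 and 223 TPM (-0.28, SE 0.30), and Cdkn2d (p19) was at 20.1 TPM or more, with medians of 93.1 and 119 TPM (0.09, SE 0.41). Cdkn1b (p27) had medians of 0.839 and 4.30 TPM (-1.08, SE 0.61) and Cdkn1c (p57) an estimate of -0.56 (SE 0.60). Of the Rb and E2F genes, 3 of 10 tested were below 0 with all libraries, 7 without control 2 (median -0.24) and 8 without both libraries (median -0.31). E2f1, the activator of S phase genes, had medians of 1.06 and 8.43 TPM (-1.12, SE 0.76), and E2f6 (0.77, SE 0.65), Rb1 (0.71, SE 0.62) and Rbl2 (0.42, SE 0.68) had estimates above 0, of which that of Rbl2 was -0.14 without both libraries.

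In the Taar6 line, with 1 library per group and so no replicate check, the difference had the same sign for nearly the whole set. Of the 40 genes, 38 were lower in Taar6+ than in its control, all 20 mitosis genes among them, and Ccne2 and Gins2 were higher by 0.15 and 0.44 log2 units. All 40 were above 0 in both libraries. Of the 34 genes tested in the Taar5 line, 11 (32.4%) were lower by at least 1 log2 unit, beside 8.74% of all genes, and 0 were higher by as much. The median difference was -0.75 over these 34 and -0.19 over all genes. Birc5 fell furthest, at 1.36 TPM against 11.5 TPM, a difference of -2.40 log2 units. Mki67 was at 4.62 and 13.5 TPM, and Top2a was at 10.7 and 19.8 TPM. Ube2c was at 11.2 and 29.0 TPM and Cdk1 at 4.06 and 6.51 TPM. Of the replication genes, Mcm2 was at 8.76 and 20.1 TPM, while Mcm3 was nearly level at 8.36 and 8.65 TPM. Pcna was again the most abundant, at 37.2 and 53.3 TPM.

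Levels were not compared between the lines, since Gapdh, a gene of every cell, was at 1.43 and 6.06 TPM in the Taar6 line and at 436 to 1222 TPM in the Taar5 line. Line, reporter, age and this difference between the columns cannot be told apart. Within the Taar6 line the progenitor markers were also lower in Taar6+ (142 against 389 TPM in sum). Hes6 made up most of these sums, at 74.7 against 244 TPM. Horizontal basal markers (15.6 against 67.4 TPM) and immature OSN markers (2693 against 4213 TPM) were lower too. Blood and immune markers (713 against 102 TPM) and sustentacular markers (2363 against 495 TPM) were higher. The part of these cells in the difference was not tested.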

How the data were processed

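Libraries were made by the authors with Smart-seq2, without molecular identifiers. The submitters' processing notes name Trimmomatic 0.36, HISAT2 2.1.0, Cufflinks 2.2.1 and mm10. The deposited values are TPM, which the authors scaled to 1000000 per library. The step from Cufflinks to TPM, the annotation, the use of strand and the treatment of reads with several matches are not given in the sources used here, and depth is unknown. Rows that repeat a symbol (488, no member among them) were summed. Nothing says whether replicates came from separate animals, so p-values measure only the spread between these samples.

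The members and lists were chosen with earlier results of these data known. 1 planned progenitor marker is not reported here, and the progenitor list was summarised over the other 7. The test was run on the 16 Taar5 line libraries, for genes that reached 1 TPM in 7 or more of them, on log2(TPM + 1), a scale on which the change of weakly expressed genes comes out too small. It used limma (version 3.58.1, R 4.3.3), lmFit and eBayes with the trend option, and p-values adjusted by Benjamini and Hochberg's method were called under 0.05. The Taar values of control 2 equal those of control 1 (13 of 13 above 0) and were left out of the fit, although the design had 9 controls throughout. The fit was tested on simulated data. The mean over the 40 members and the Taar6 line carry no test.

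Members were named by adjusted p under 0.05, the 6 highest and 6 lowest estimates, the 5 highest medians, and 10 fixed names (Mki67, Top2a, Cdk1, Ccnb1, Pcna, Mcm2, Ccne1, Cdc20, Rrm2 and Plk1), with up to 4 genes per wider list, by call and then size of change. Other members were named after their values were seen, so that each is accounted for. Positions are from GENCODE M21 on GRCm38 (92.9% of symbols found). Alternatives were a pseudocount of 0.1, no filter, a filter of 5 TPM, array weights, eBayes without trend, quantile normalization, rescaling after removal of receptor genes, a replicate block, all 18 libraries and leaving out each library. Fits without both libraries that stood apart, and with libraries of at least 13000 symbols above 0, were added after the data were seen.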

Additional observations from a re-analysis of the deposited data

Results flagged for a closer look

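Within each group, the library at either end was compared with its nearest neighbour (Dixon's gap, on log2(TPM + 1)). Of 82 groups of values checked, 14 had a library far from the others. Chance would give about 4.1 if the groups were independent. They share the same libraries and many hold zeros, so 14 cannot be set against that number. Taar5+ 5 accounted for 10 of them, all on the high side: Top2a at 31.2 TPM, Ccnb1 at 27.2 TPM, Aurkb at 18.4 TPM, Kif11 at 13.1 TPM, Kif23 at 10.7 TPM, Cenpf at 5.99 TPM, Cenpe at 4.38 TPM, Ccne1 at 4.08 TPM, Cdc6 at 2.05 TPM, and the mean log2(TPM + 1) of the 40 genes at 4.30. The nearest other Taar5+ library for Top2a was at 3.21 TPM and for Kif23 at 0.343 TPM. In the same library, Krt14 was at 102 TPM and Cyp2g1 at 6113 TPM, and their part in these values was not tested. Control 2 was listed at 0 for Mcm6 and for Pcna, which were above 0 in the other 8 controls. Taar5+ 4 was at 0 for Rrm1 and Taar5+ 6 was at 0 for Aurka, where the other 6 Taar5+ libraries were above 0.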

How the results depend on the processing

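The 34 tested members had 0 calls in the main fit and under every alternative run except array weights (18) and leaving out both control 2 and Taar5+ 5 (3). Of the 88 tested genes of the wider lists, 21 (23.9%) were called lower with array weights and 2 (2.27%) without both libraries. The shares of all genes called lower in those fits were 9.34% and 2.79%. All genes called, 21 in the main fit, numbered 109 with quantile normalization, 11 when rescaled without receptor rows, 1349 with array weights, 401 without both libraries and 134 in libraries with at least 13000 symbols, and 16 to 148 when each library was left out in turn (148 without control 2, 64 without Taar5+ 5). The mean of the 40 genes kept its sign throughout, with a difference of -1.06 to -0.42 when 1 library was left out. The replicate block gave 13 calls over all genes and 0 members, a difference in the mean of -0.54, and a Mcm2 estimate of 0.025. Whether the numbers pair the samples is not stated and was not settled. Same-numbered correlations ran from -0.01 to 0.28. Taar5+ 1, 3 and 4 correlated best with the control of their own number, and Taar5+ 2, 5, 6 and 7 with another control. Estimates near 0 changed sign, and the cause was not tested. Array weights gave -0.39 for Aurka, -1.11 for Ccne2, -1.14 for Gins1, -0.24 for Mcm4, -1.14 for Nusap1, -0.33 for Pcna, -0.22 for Pola1 and -0.41 for Rrm1. Without both libraries these were -0.30, -0.22, -0.24, -0.57, -0.48, -0.22, -0.078 and -0.63. With at least 13000 symbols they were -0.67 for Ccne2, -0.80 for Gins1, -0.023 for Mcm4, -0.11 for Nusap1, -0.32 for Pcna, -0.078 for Pola1 and -0.35 for Rrm1. Mcm4 was at -0.17 and Rrm1 at -0.020 with quantile normalization, Mcm4 at -0.0013 when rescaled and -0.024 with all 18 libraries, and Plk1 at 0.043 with a pseudocount of 0.1. Leaving out 1 library moved Aurka from -0.035 to 0.91, Ccne2 from -0.22 to 0.35, Gins1 from -0.17 to 0.67, Mcm2 from -0.80 to 0.079, Mcm4 from -0.36 to 0.25, Nusap1 from -0.32 to 0.42, Pcna from -0.26 to 0.65, Plk1 from -0.67 to 0.17 and Rrm1 from -0.33 to 0.77. Since TPM hold no depth, a member listed at 0 cannot be given an upper limit.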
